A study of Mus musculus with 6 samples.

Results

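The Slc25a genes encode the mitochondrial carrier family, and their messenger RNAs were followed here in whole mouse kidney. Members were all genes whose symbol is Slc25a followed by a number and whose raw counts summed to at least 60 over the 6 libraries. Of 54146 genes in the deposited count files, 47 had such a symbol and 42 reached the minimum. Slc25a43 was the member closest above it with 167 counts in all, and Slc25a2 lay closest below with 29. The other 4 genes left out were Slc25a18 with 18 counts, Slc25a31 with 10, Slc25a41 with 3 and Slc25a54 with 0. The 42 members lie on 19 chromosomes, with 4 of them on the X chromosome.

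Kidneys came from B6C3F1/J mice at postnatal day 84, which is 12 weeks of age. There were 3 libraries labelled Tfam f/f, from mice with a floxed Tfam gene and no Cre, and 3 labelled KspCre Tfam f/f, from mice with the same floxed gene and the Ksp-Cre transgene. The promoter of kidney-specific cadherin (Ksp) drives Cre in tubule epithelium, so other cells of the kidney keep an intact floxed gene. Whether each library of a label came from its own animal is not stated, so a p-value here reflects the spread among libraries, part of which may be technical.

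Mitochondrial carriers sit in the inner membrane and exchange the small molecules that the matrix and the cytosol share, among them ADP and ATP, phosphate, the acids of the citric acid cycle, amino acids, coenzymes, iron and glutathione. They are encoded in the nucleus, made in the cytosol and inserted into the membrane by dedicated import complexes. Kidney tubules, above all the proximal tubule, are rich in mitochondria, which pay for the reabsorption of salt, glucose and amino acids and carry out steps of amino acid breakdown and glucose synthesis.

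Total gene counts ran from 19024208 to 34821537 under the label Tfam f/f and from 30348281 to 48899266 under the label KspCre Tfam f/f. The targeted gene went against the labels. Tfam, which compacts the mitochondrial genome and is needed for its transcription, stood at 30.3, 33.6 and 23.2 CPM (normalised read counts scaled to a common library size) under the label Tfam f/f, in the order of replicates 1, 2 and 3, and at 63.1, 63.5 and 61.4 CPM under the label KspCre Tfam f/f. Tfam was therefore lower in the libraries labelled as without Cre, by gene counts that do not separate the floxed exons from the rest, and every direction below is given by label only. Genes of the mitochondrial genome took 2.43% to 5.77% of gene counts under the label Tfam f/f and 11.2% in each library of the other label. Lcn2, a gene switched on in injured tubules, stood at 1068, 321 and 1644 CPM under the label Tfam f/f and at 2.30 to 2.90 CPM under the other. The libraries labelled Tfam f/f differed widely among themselves: summed CPM of 12 proximal tubule markers ran from 2664 to 11553, against 21329 to 23063 under the label KspCre Tfam f/f. Replicate 3 was the farthest from the other label in these measures, and replicate 2 the nearest. All 12 proximal tubule markers were detected in every library.

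Counts of all 17308 genes that passed a filter on low counts were fitted together with edgeR's quasi-likelihood test, and a gene was called at a Benjamini-Hochberg adjusted p below 0.05. All 42 members passed the filter. With edgeR, 16 members were higher and 4 lower under the label KspCre Tfam f/f, and 22 were not called, while without scaling factors the counts turned to 6 higher and 12 lower. Those 16 are 38.1% of the members, where 21.3% of all tested genes were called higher, and the 4 are 9.52%, where 24.9% of all tested genes were called lower. The median log2 fold change (KspCre Tfam f/f minus Tfam f/f) of the members was 0.33, against -0.03 over all tested genes, and it was -0.09 against -0.46 without scaling factors. The 12 members called lower in that setting were the same 4 plus Slc25a1, Slc25a4, Slc25a12, Slc25a22, Slc25a28, Slc25a30, Slc25a47 and Slc25a53, and the 6 called higher were Slc25a15, Slc25a16, Slc25a21, Slc25a42, Slc25a48 and Slc25a51. The median size of change regardless of sign was 0.39 for the members and 0.47 for all tested genes. By at least 2-fold, 6 members were called higher and 3 lower. The share of all tested genes at that fold was not counted, so these counts are not read as low or high. The 6 values did not overlap between the labels in 28 members, or 66.7%, where 61.9% of all tested genes did not overlap. Of these 28 members, 23 were higher and 5 lower under the label KspCre Tfam f/f. The matching split by direction over all tested genes was not counted, so this split is not read as particular to the members. In whole tissue, fewer cells of a type and less RNA per cell cannot be told apart.

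The 2 libraries that stood apart moved these counts as follows. Without Tfam f/f replicate 3, 15 members were called higher and 5 lower, and without Tfam f/f replicate 2, 20 were called higher and 4 lower. Over the whole table, 3613 genes were then called higher and 4023 lower without replicate 3, and 4652 and 4942 without replicate 2. Without Tfam f/f replicate 1, 11 members were called higher and 3 lower, beside 2855 and 3577 genes. Replicate 3 was the library labelled Tfam f/f farthest from the mean of the other label in 28 of 42 members, and the lowest of its label in 12 of the 16 members called higher. The matching shares of all tested genes were not counted, so neither count is read as particular to the members. Leaving out a library of the other label took the number called higher to 9, 7 and 8 without KspCre Tfam f/f replicates 1, 2 and 3. The number of genes called higher over the whole table went the same way, from 3690 to 2321, 2276 and 2299. The coefficient of variation had a median of 17.3% over the members under the label Tfam f/f and of 5.53% in the others. It was larger under the label Tfam f/f in 36 of 42 members, and in 81.2% of all tested genes.

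**Figure D1:**
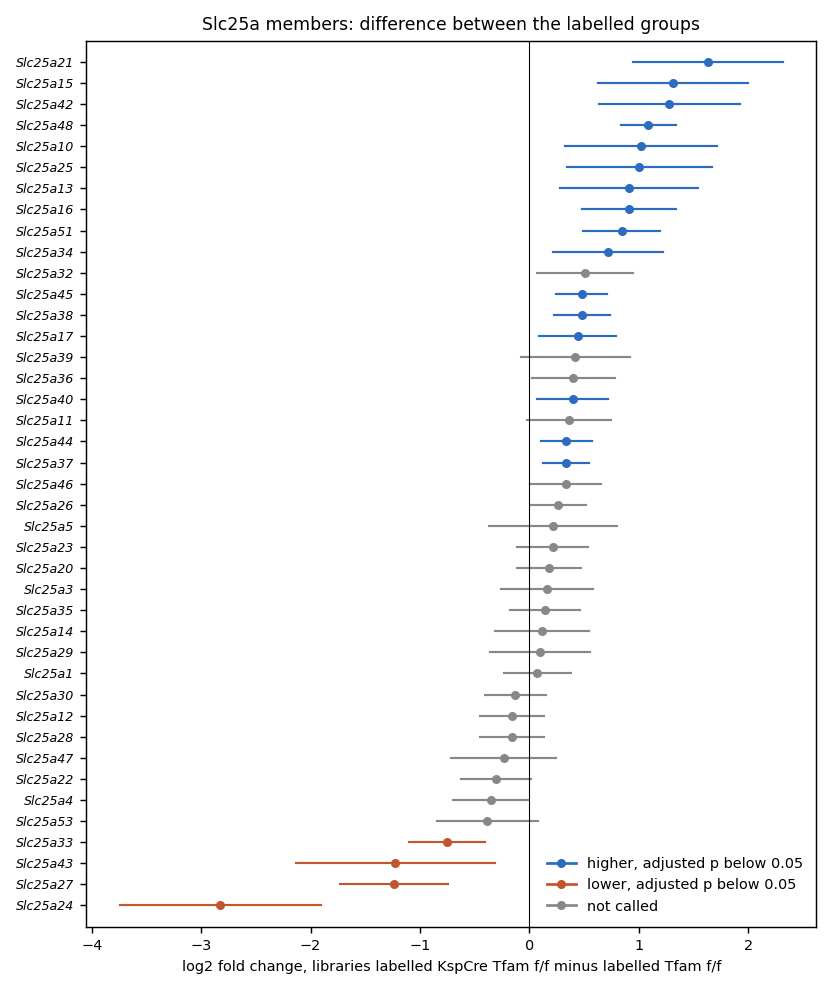
Log2 fold change of 41 of the Slc25a members (horizontal axis, label KspCre Tfam f/f minus label Tfam f/f, n = 3 libraries each), ordered by size on the vertical axis; points are edgeR estimates, bars are 95% intervals, and colours mark the 16 members called higher, the 4 called lower and 21 not called (6 higher and 12 lower without scaling factors). Slc25a24 at -2.82 lies farthest to the left and Slc25a21 at 1.64 farthest to the right.

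Levels of different genes were compared as FPKM, which is CPM per kilobase of joined exons. Slc25a5 was the most abundant member, at 539 ± 158 FPKM (SD, n = 3) under the label Tfam f/f and 625 ± 22.5 under the label KspCre Tfam f/f. It made up 34.2% and 32.2% of the summed FPKM of the family. Under the label Tfam f/f it was followed by Slc25a39 at 187 ± 45.9, Slc25a4 at 154 ± 22.1 and Slc25a3 at 126 ± 19.6 FPKM. The gaps between these last 3 were smaller than the sum of their SDs, which include the spread of libraries that the 3 genes share. Within each library labelled Tfam f/f, the order per length was the same as that of the means, and it was not tested. Under the label KspCre Tfam f/f, Slc25a39 at 250.1 ± 12.5 FPKM stood clear of Slc25a3 at 141 ± 5.11. Slc25a10 at 127 ± 8.65 and Slc25a4 at 121 ± 0.633 FPKM came next, and that pair did not differ beyond its spread. Without length, Slc25a3 stood above Slc25a39 under this label, at 784 ± 28.3 and 689 ± 34.4 CPM. The FPKM order of Slc25a39 and Slc25a3 thus rests on joined exon lengths of 2756 and 5550 bases. The 5 most abundant members held 68.1% of the family's FPKM under the label Tfam f/f and 65.1% under the other. At the low end, 13 members stayed under 10 FPKM in both groups.

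Across the 42 members, which share their libraries, the levels of the 2 labels followed each other with a Spearman rho of 0.954. The raw counts of the members together were 0.603%, 0.577% and 0.463% of all gene counts under the label Tfam f/f and 0.517%, 0.543% and 0.529% under the label KspCre Tfam f/f. The library labelled Tfam f/f replicate 1 was the highest of all and replicate 3 of that label the lowest, so the labels overlapped in the family's total. The means were 0.548% under the label Tfam f/f and 0.530% under the other. With genes of the mitochondrial genome left out of the total, the order of the means turned, to 0.570 ± 0.083% and 0.596 ± 0.015% (SD, n = 3). The labels overlapped in that measure too.

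**Figure D2:**
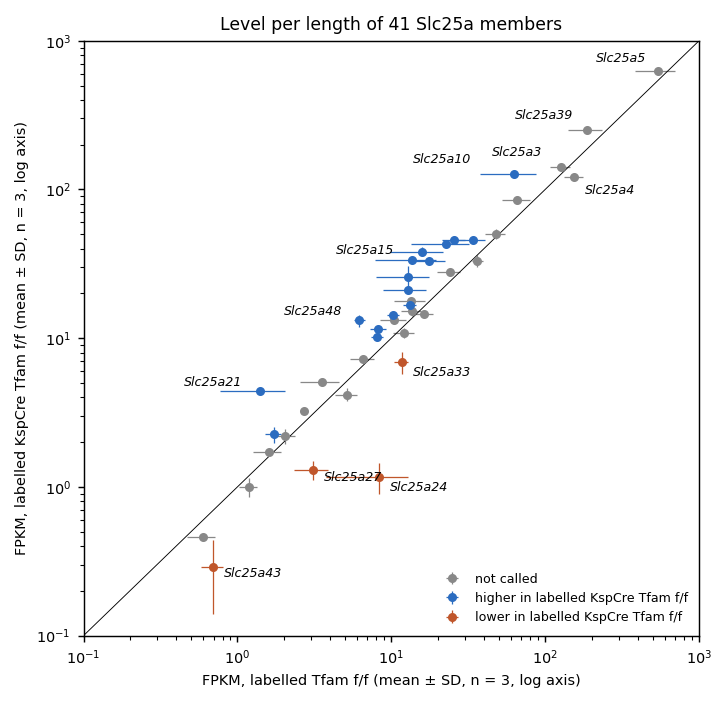
Mean level per length of 41 members in FPKM on log axes, libraries labelled Tfam f/f (horizontal) against those labelled KspCre Tfam f/f (vertical), with bars of 1 SD (n = 3) and a line of equal level. Slc25a5 is at the top in both groups, at 539 and 625 FPKM, and Slc25a24, at 8.30 and 1.17 FPKM, lies farthest below the line.

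RefSeq promoter windows of GRCm38.p6, from 250 bases before to 50 bases after a start site, were found for 33 of the 42 members, in 43 windows. Each was searched on both strands for 5 short elements. CACGTG, the E-box read by MYC, USF and TFE3 type factors, was found in 7 member windows, or 16.3%, in 7.15% of all 32851 windows and in 9.39% of the 13956 windows of tested genes. The 7 windows belong to 6 genes, since both windows of Slc25a14 overlap and hold the same site. TGACGTCA, the cAMP response element, was found in 2 member windows, in 1.79% of all and in 2.85% of those of tested genes. TGATGCAA, the C/EBP-ATF element of the stress factor ATF4, TCAAGGTCA, an element of estrogen-related receptors, and GCATGCGC, an element of NRF1, were in 0 member windows in 0.895%, 0.423% and 2.71% of all windows, and in 0.645%, 0.265% and 4.67% of those of tested genes. The E-box windows put the same letters beside members called in opposite directions, while the cAMP response element was found in 1 called member, Slc25a25. The windows of the 4 called members that hold a match are shown on the gene's strand, with the matched element in capitals (1 match in each, so none overlaps another):
Slc25a13 (chr6:6217124-6217423, minus strand): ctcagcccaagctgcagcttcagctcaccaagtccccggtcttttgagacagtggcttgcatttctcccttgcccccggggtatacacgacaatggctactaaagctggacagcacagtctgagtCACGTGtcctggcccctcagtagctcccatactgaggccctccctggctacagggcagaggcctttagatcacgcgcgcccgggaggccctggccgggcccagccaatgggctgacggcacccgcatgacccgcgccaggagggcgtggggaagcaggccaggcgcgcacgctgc
Slc25a15 (chr8:22398228-22398527, minus strand): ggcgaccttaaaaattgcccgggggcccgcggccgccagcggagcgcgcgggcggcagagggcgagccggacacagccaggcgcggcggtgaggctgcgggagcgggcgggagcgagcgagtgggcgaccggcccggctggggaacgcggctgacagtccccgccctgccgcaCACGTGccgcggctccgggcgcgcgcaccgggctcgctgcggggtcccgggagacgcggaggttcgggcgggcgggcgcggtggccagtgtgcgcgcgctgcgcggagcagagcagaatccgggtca
Slc25a33 (chr4:149774218-149774517, minus strand): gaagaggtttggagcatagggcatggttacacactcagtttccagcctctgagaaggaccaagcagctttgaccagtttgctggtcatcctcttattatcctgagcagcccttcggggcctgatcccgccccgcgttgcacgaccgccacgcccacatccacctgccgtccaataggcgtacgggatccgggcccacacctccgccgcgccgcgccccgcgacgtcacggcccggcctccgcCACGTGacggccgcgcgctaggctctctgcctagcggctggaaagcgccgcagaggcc
Slc25a25 (chr2:32424017-32424316, minus strand): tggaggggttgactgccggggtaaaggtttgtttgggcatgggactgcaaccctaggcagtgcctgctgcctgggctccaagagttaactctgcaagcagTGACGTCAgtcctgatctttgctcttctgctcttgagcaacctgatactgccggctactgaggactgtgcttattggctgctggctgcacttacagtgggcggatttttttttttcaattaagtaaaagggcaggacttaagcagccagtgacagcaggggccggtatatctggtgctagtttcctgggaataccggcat
The E-box starts at base -125 from the start site in Slc25a13, at -77 in Slc25a15 and at -8 in Slc25a33. Slc25a13 and Slc25a15 were called higher under the label KspCre Tfam f/f, and Slc25a33 lower. The cAMP response element of Slc25a25 starts at -150 in 1 of the gene's 3 windows. For Slc25a15 and Slc25a25, no GENCODE M21 transcript of the gene itself holds the short stretch searched just after the window's start site in 1 unbroken run. Transcripts of other genes were not searched. Each of these 2 windows lies inside its annotated gene, and the 2 start sites are taken from RefSeq. The other matches were in members that were not called, Slc25a1, Slc25a14 and Slc25a36. A match describes letters only and does not show that a factor binds there.

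The adenine nucleotide and phosphate carriers feed and drain ATP synthase. Of 6 tested members, 1 was called higher and 1 lower, at a median log2 fold change of 0.19; the most abundant ones were not called. Slc25a5, the ADP/ATP carrier ANT2 of many dividing and epithelial cells, had 1026, 1047 and 587 CPM under the label Tfam f/f and 1007, 1072 and 1008 CPM under the label KspCre Tfam f/f. Replicate 3 of Tfam f/f alone was low, and the other 5 libraries lay together. The log2 fold change was 0.21 ± 0.25 (SE, n = 3 each, 95% interval -0.37 to 0.80, edgeR adjusted p = 0.507). Of the exon sequence of Slc25a5 (chromosome X, 36795651 to 36798807, mm10), 8.3% of 100-base stretches also occur in copies such as Gm5256, so reads there may not have been counted.

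Slc25a4, the ADP/ATP carrier ANT1 that is best known from heart and muscle, went the other way. It had 406, 378 and 305 CPM under the label Tfam f/f and 283, 284 and 286 CPM under the label KspCre Tfam f/f, so the labels did not overlap. Its log2 fold change of -0.35 ± 0.15 missed the threshold (edgeR adjusted p = 0.0879), but it was called with upper-quartile scaling (-0.43, adjusted p = 0.0404), without scaling factors (-0.77, adjusted p = 0.00202) and without Tfam f/f replicate 3 (-0.47, adjusted p = 0.00504). Per length, Slc25a5 made up 78.3%, 79.9% and 73.4% of the Slc25a4 and Slc25a5 sum under the label Tfam f/f and 83.6%, 84.4% and 83.5% under the other. The share of ANT2 within this pair was thus higher in each library labelled KspCre Tfam f/f, by 6.63 percentage points between the means. Slc25a3, which brings phosphate into the matrix, had 796, 724 and 583 CPM against 761, 816 and 775 CPM. These ranges overlapped, and its log2 fold change was 0.16 ± 0.18 (95% interval -0.26 to 0.58, edgeR adjusted p = 0.484).

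The ATP-Mg/phosphate carriers, which are gated by calcium and set the matrix pool of adenine nucleotides, moved in opposite directions. Slc25a24 (chromosome 3, 109123149 to 109168457, mm10) had 20.5, 18.4 and 46.5 CPM under the label Tfam f/f and 4.93, 3.04 and 4.04 CPM under the label KspCre Tfam f/f. Every library of the first label was above every library of the second, and Tfam f/f replicate 3 was the highest. The gene was 7.08-fold lower under the label KspCre Tfam f/f, with a log2 fold change of -2.82 ± 0.39 (edgeR adjusted p = 0.00188), which was the largest size of change among the 42 members. Its relative Slc25a25 (chromosome 2, 32414487 to 32451445), whose promoter with the cAMP response element is shown above, had 136, 104 and 61.3 CPM against 168, 247 and 189 CPM. All libraries labelled KspCre Tfam f/f were higher, by 2.01-fold with an SE of 0.29 on the log2 scale (edgeR adjusted p = 0.0236). That call was lost without KspCre Tfam f/f replicate 2 (0.84, adjusted p = 0.0828), without KspCre Tfam f/f replicate 3 (1.06, adjusted p = 0.0558), without a filter on low counts (1.01, adjusted p = 0.0534) and without scaling factors (0.59, adjusted p = 0.0697). The third gene of the group, Slc25a23, had a log2 fold change of 0.21 (95% interval -0.12 to 0.54) and was not called. Its levels did not overlap between the labels, at 102 to 140 CPM against 143 to 152 CPM.

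Within the sum of these 3 genes per length, Slc25a24 held 12.1%, 12.0% and 33.4% under the label Tfam f/f and 2.88%, 1.45% and 2.24% under the other. Slc25a25 held 34.7%, 29.5% and 19.2% against 42.8%, 51.4% and 45.8%. Neither share overlapped between the labels, while the share of Slc25a23 had means of 53.0 ± 5.51% and 51.1 ± 3.65% and overlapped. Summed CPM of 9 macrophage markers, 8 of which were called lower, ran from 402 to 1300 under the label Tfam f/f and from 245 to 296 under the other, with Tfam f/f replicate 3 the highest, as for Slc25a24. Much of that sum was Cd74, at 508, 225 and 746 CPM against 148, 114 and 109 CPM. The marker that was not called, Csf1r, had a log2 fold change of 0.32. The part of macrophages in the level of Slc25a24 was not tested.

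**Figure D3:**
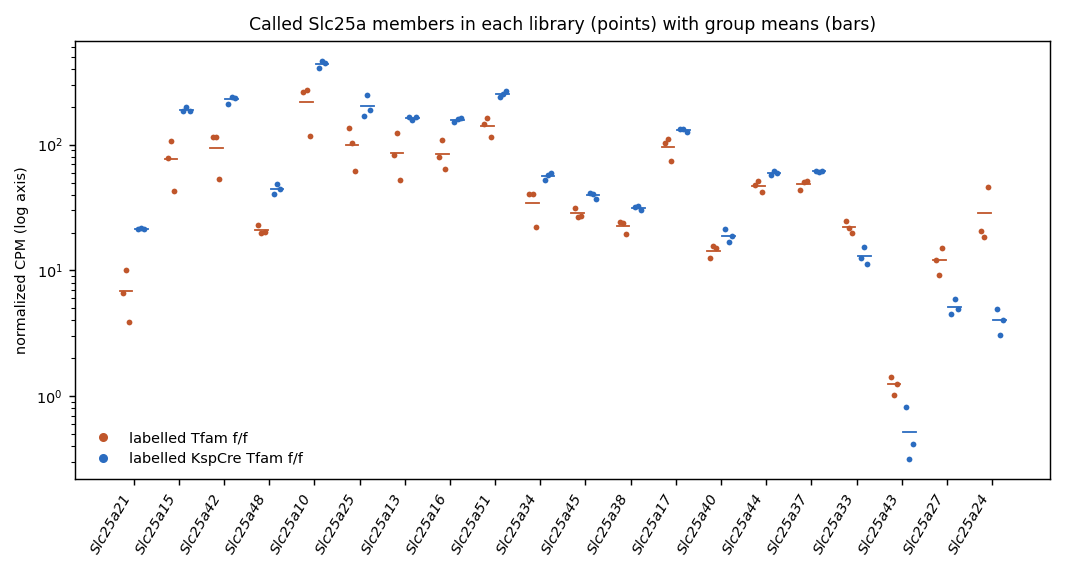
Normalised CPM on a log axis of the called members in each of the 6 libraries, with a point for each library, a bar at each mean (n = 3) and the 2 labels side by side. In Slc25a24 the libraries labelled Tfam f/f lie between 18.4 and 46.5 CPM and those labelled KspCre Tfam f/f between 3.04 and 4.93 CPM, and in Slc25a21 the labels span 3.86 to 10.01 and 21.2 to 21.8 CPM.

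The carriers of dicarboxylates, tricarboxylates and oxo acids link the citric acid cycle to the cytosol, and 2 of 4 were called higher with 0 lower, at a median log2 fold change of 0.69. Slc25a10, which exchanges malate and succinate for phosphate, had 261, 271 and 118 CPM under the label Tfam f/f and 407, 466 and 446 CPM under the label KspCre Tfam f/f. The labels did not overlap, and the difference was 1.02 ± 0.30 on the log2 scale (edgeR adjusted p = 0.0258). Without Tfam f/f replicate 1 its adjusted p was 0.0519, without KspCre Tfam f/f replicates 1, 2 and 3 it was 0.0591, 0.0766 and 0.0714, and without scaling factors it was 0.0639, each above the threshold of 0.05. The exons of Slc25a10 (chromosome 11, 120491840 to 120499187, mm10) overlap those of the opposite-strand gene Gm11788 over 6.6% of their length, and the strand setting of the counting is not known. Opposite-strand overlaps of this kind also concern Slc25a11 (8.9%, Rnf167), Slc25a37 (6.3%) and Slc25a46 (7.1%).

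Slc25a21 carries 2-oxoadipate and 2-oxoglutarate, on the route of lysine and tryptophan breakdown, and it showed the largest increase of the family. It had 6.61, 10.01 and 3.86 CPM under the label Tfam f/f and 21.2, 21.8 and 21.4 CPM under the label KspCre Tfam f/f. The latter libraries agreed closely while the former spread over more than their lowest value, and the groups stood well apart. The fold was 3.11, or 1.64 ± 0.29 on the log2 scale (edgeR adjusted p = 0.00444). The citrate carrier Slc25a1, which exports citrate for lipid synthesis, had 121, 100.3 and 89.8 CPM against 101, 118 and 108 CPM. Its ranges overlapped at a log2 fold change of 0.07 ± 0.13 (95% interval -0.23 to 0.38, edgeR adjusted p = 0.673), and without scaling factors it was called in the opposite direction, at -0.35 (adjusted p = 0.0360). Slc25a11, the oxoglutarate-malate carrier of the malate-aspartate shuttle, had 160.3, 152 and 107 CPM against 170.2, 192 and 177 CPM. The labels did not overlap, but the log2 fold change of 0.36 ± 0.17 was not called (95% interval -0.02 to 0.75, edgeR adjusted p = 0.109).

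Of the aspartate and glutamate carriers, which supply the malate-aspartate shuttle and the urea cycle, 1 of 3 was called higher and 0 lower, at a median log2 fold change of -0.16. Slc25a13, or citrin, had 83.4, 124 and 52.7 CPM under the label Tfam f/f and 166, 158 and 165 CPM under the label KspCre Tfam f/f. Replicate 2 of Tfam f/f came closest to the other label without reaching it. The gene, whose E-box window is shown above, was higher by 0.91 ± 0.27 on the log2 scale (edgeR adjusted p = 0.0282). It was not called without Tfam f/f replicate 1 (adjusted p = 0.0944), without KspCre Tfam f/f replicate 1, 2 or 3 (adjusted p = 0.0756, 0.0706 and 0.0747), without a filter on low counts (adjusted p = 0.0694) or without scaling factors (adjusted p = 0.0810). Its paralog Slc25a12, or aralar, had 126, 134 and 100.0 CPM against 106, 111 and 105 CPM, which overlapped. The log2 fold change of Slc25a12 was -0.16 ± 0.13 (95% interval -0.45 to 0.14, edgeR adjusted p = 0.337), and it was called lower without Tfam f/f replicate 3 (-0.27, adjusted p = 0.0294) and without scaling factors (-0.58, adjusted p = 0.00243).

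Citrin made up 56.2%, 64.1% and 50.4% of the citrin and aralar sum per length under the label Tfam f/f and 75.2%, 73.3% and 75.2% under the label KspCre Tfam f/f. The shares did not overlap, and their means differed by 17.6 percentage points. Slc25a22, a glutamate carrier, had a log2 fold change of -0.30 (95% interval -0.63 to 0.02) and overlapped between the labels. Its relative Slc25a18 was below the count minimum and made up 0.91% and 1.30% of the pair per length.

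**Figure D4:**
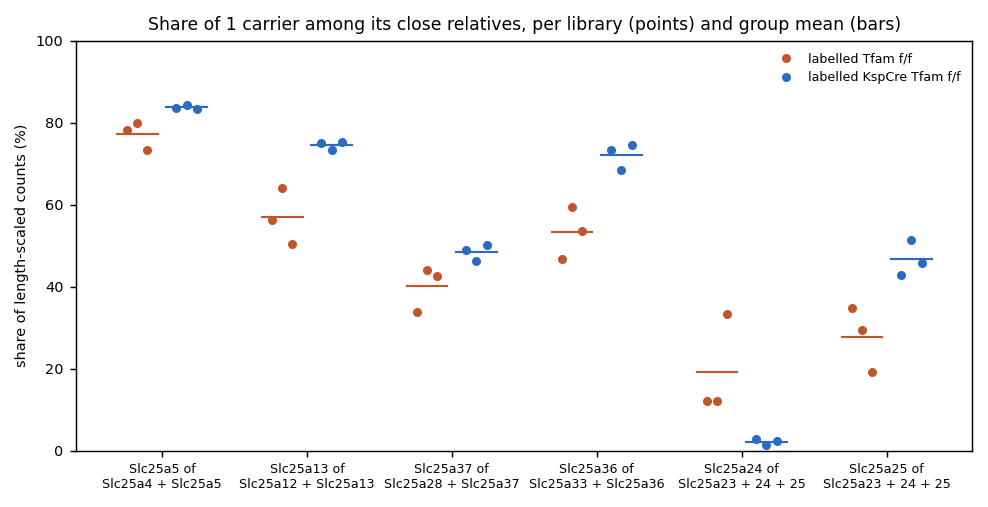
Share of the summed level per length, in percent, that each paralog held in each of the 6 libraries, for 4 pairs and 2 of the 3 ATP-Mg/phosphate carriers, with a point for each library and a bar at each mean (n = 3). The shares of Slc25a5, Slc25a13 and Slc25a36 are higher in all libraries labelled KspCre Tfam f/f, and that of Slc25a24 is lower in all of them.

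Among the carriers of ornithine, basic amino acids, glycine and branched-chain amino acids, 3 of 4 were called higher and 0 lower, at a median log2 fold change of 0.41. Slc25a15, the ornithine carrier of arginine metabolism and the urea cycle (chromosome 8, 22375551 to 22398597, mm10), had 78.8, 108 and 42.9 CPM under the label Tfam f/f and 185, 199 and 186 CPM under the label KspCre Tfam f/f. The lowest library of the second label lay well above the highest of the first. The increase was 2.48-fold, or 1.31 ± 0.29 on the log2 scale (edgeR adjusted p = 0.0102), and the E-box of this gene is shown above. Slc25a38, which brings glycine into the matrix for heme synthesis, was higher by 0.48 on the log2 scale (edgeR adjusted p = 0.0110), a call lost without KspCre Tfam f/f replicate 2 (adjusted p = 0.0502) and without scaling factors (0.06, adjusted p = 0.656). Slc25a44, which carries branched-chain amino acids, was higher by 0.34 (edgeR adjusted p = 0.0262). Its adjusted p rose to 0.0588 without Tfam f/f replicate 1 and to 0.0642, 0.102 and 0.0853 without KspCre Tfam f/f replicates 1, 2 and 3, and to 0.0977 after thinning all libraries to the shallowest; without scaling factors its sign turned to -0.083. Slc25a29, a carrier of basic amino acids, had 3.36 to 5.06 CPM over the 6 libraries and was not called (0.10, 95% interval -0.36 to 0.56).

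Slc25a20, the carnitine-acylcarnitine carrier through which long-chain fatty acids enter beta-oxidation, had 73.1, 69.0 and 54.8 CPM under the label Tfam f/f and 70.9, 71.4 and 80.6 CPM under the label KspCre Tfam f/f. The ranges overlapped, with a log2 fold change of 0.18 ± 0.13 (95% interval -0.11 to 0.47, edgeR adjusted p = 0.275).

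Nucleotides, coenzymes and vitamins cross the membrane through 9 of the members, of which 4 were called higher and 1 lower, at a median log2 fold change of 0.44. Slc25a42, which imports coenzyme A in exchange for adenine nucleotides, had 115, 114 and 53.6 CPM under the label Tfam f/f and 210.0, 241 and 236 CPM under the label KspCre Tfam f/f. Its log2 fold change was 1.28 ± 0.28 (edgeR adjusted p = 0.00862), with no overlap. Slc25a16, also linked to matrix coenzyme A, had 80.2, 108 and 63.6 CPM against 152, 159 and 163 CPM. Libraries with the label KspCre Tfam f/f were again the higher ones, by 0.91 ± 0.18 on the log2 scale (edgeR adjusted p = 0.00673). Slc25a51, the NAD carrier, had 145, 163 and 116 CPM against 238, 254 and 267 CPM. This was an increase of 0.84 ± 0.15 (edgeR adjusted p = 0.00432) with the labels well apart. Against a minimum fold of 1.5, Slc25a42 was still called (adjusted p = 0.0451) and Slc25a16 and Slc25a51 were not, while all 3 kept their calls under the other 16 alternatives.

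Slc25a33, which carries pyrimidine nucleotides for mitochondrial DNA and RNA synthesis, was the member of this group called lower. It had 24.5, 21.8 and 19.8 CPM under the label Tfam f/f and 12.6, 15.4 and 11.1 CPM under the label KspCre Tfam f/f. The groups did not overlap, and the log2 fold change was -0.75 ± 0.15 (edgeR adjusted p = 0.00609). Its exons (chromosome 4, 149744036 to 149774277, mm10) overlap the opposite-strand gene Gm13068 over 14.9% of their length, so part of its counts is uncertain. The second pyrimidine nucleotide carrier, Slc25a36, had 109.5, 163 and 116 CPM against 177, 169.7 and 165 CPM. It did not overlap but was not called (0.40 ± 0.16, edgeR adjusted p = 0.0773), except without Tfam f/f replicate 2 (0.62, adjusted p = 0.00210). Per length, Slc25a36 held 46.8%, 59.5% and 53.5% of the pair under the label Tfam f/f and 73.4%, 68.5% and 74.5% under the other, so the balance of the pair differed without overlap, by 18.9 percentage points. Counted without length, that difference was 7.81 percentage points.

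Slc25a17, the peroxisomal carrier of coenzyme A and related cofactors, was higher by 0.44 on the log2 scale (edgeR adjusted p = 0.0453). The call was lost without Tfam f/f replicate 1 (adjusted p = 0.0815), without KspCre Tfam f/f replicates 1, 2 and 3 (adjusted p = 0.124, 0.121 and 0.0991), after thinning (0.0520), with upper-quartile scaling (0.0627) and without scaling factors (0.865). The carriers of S-adenosylmethionine (Slc25a26) and of folate or FAD (Slc25a32) had log2 fold changes of 0.26 and 0.51. Neither overlapped between the labels, and neither was called (edgeR adjusted p = 0.0774 and 0.0575). Slc25a32 was called with DESeq2 (adjusted p = 0.0408), after thinning (0.0426) and without Tfam f/f replicate 2 (0.00306), and Slc25a26 without Tfam f/f replicate 2 (0.0381).

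The iron and glutathione carriers serve iron-sulfur cluster and heme synthesis and the matrix defence against peroxides, and 2 of 4 were called higher and 0 lower, at a median log2 fold change of 0.36. Slc25a37, or mitoferrin-1, the iron importer best known from developing red cells, had 43.6, 50.7 and 51.4 CPM under the label Tfam f/f and 61.5, 60.7 and 61.4 CPM under the label KspCre Tfam f/f. It was higher by 0.33 ± 0.09 on the log2 scale without overlap (edgeR adjusted p = 0.0207). The call was lost without KspCre Tfam f/f replicates 1, 2 and 3 (adjusted p = 0.0730, 0.0701 and 0.0752) and with upper-quartile scaling (0.0577), and without scaling factors the sign turned to -0.10. Summed CPM of 5 red blood cell markers ran from 17.8 to 99.1 under the label Tfam f/f and from 142 to 188 under the other, and their part in the level of Slc25a37 was not tested. Its paralog Slc25a28, or mitoferrin-2, overlapped between the labels (-0.16, 95% interval -0.45 to 0.13). Mitoferrin-1 held 33.7%, 44.2% and 42.6% of the pair per length under the label Tfam f/f and 48.9%, 46.2% and 50.2% under the other, again without overlap.

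Slc25a39, the glutathione carrier and among the most abundant members, had 615, 557 and 372 CPM under the label Tfam f/f and 656, 724 and 688 CPM under the label KspCre Tfam f/f. The labels did not overlap, and the log2 fold change of 0.42 ± 0.21 was not called (95% interval -0.08 to 0.92, edgeR adjusted p = 0.140). Its relative Slc25a40, at 1.72 and 2.26 FPKM, was higher by 0.40 at the edge of the threshold (edgeR adjusted p = 0.0497). It lost the call without Tfam f/f replicate 1 (adjusted p = 0.117) or 3 (0.0597), without KspCre Tfam f/f replicate 1, 2 or 3 (0.179, 0.0584 and 0.115), and under 7 other alternatives, among them limma voom (0.0580) and no scaling factors, where the sign turned to -0.032.

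Slc25a27, or UCP4, is a relative of the uncoupling proteins that is best known from neurons. It had 12.1, 9.17 and 15.2 CPM under the label Tfam f/f and 4.51, 5.92 and 4.96 CPM under the label KspCre Tfam f/f. Every library of the first label was higher, and the gene was 2.36-fold lower under the label KspCre Tfam f/f (-1.24 ± 0.21 on the log2 scale, edgeR adjusted p = 0.00359). The other relatives, Slc25a14 and Slc25a30, overlapped between the labels at 0.12 and -0.13, and the median of these 3 genes was -0.13. The uncoupling proteins proper belong to the same carrier family under other symbols. Ucp2, found in immune and epithelial cells, had 328, 221 and 341 CPM against 106, 119 and 114 CPM. The groups were far apart, and the log2 fold change was -1.39 ± 0.18 (edgeR adjusted p = 0.00137). Ucp3 was also called lower but stayed under 1 CPM in every library, and Ucp1, Mtch1 and Mtch2 were not called.

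Among 7 members whose substrate is little known or debated, 3 were called higher and 1 lower, at a median log2 fold change of 0.14. Slc25a48, which has been linked to choline import, had 22.9, 19.8 and 20.1 CPM under the label Tfam f/f and 40.3, 48.6 and 44.4 CPM under the label KspCre Tfam f/f. It had the smallest adjusted p of the family, and its labels stood well apart (1.09 ± 0.11 on the log2 scale, edgeR adjusted p = 0.000465). Slc25a34 was higher by 0.72 (edgeR adjusted p = 0.0291), a call lost without KspCre Tfam f/f replicates 1, 2 and 3 (adjusted p = 0.0603, 0.0829 and 0.0859), without a filter on low counts (0.0571), after thinning (0.0514) and without scaling factors (0.170). Slc25a45 was higher by 0.48 (edgeR adjusted p = 0.00761), with each library left out too, but not without scaling factors (0.05, adjusted p = 0.712).

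Slc25a43 was the member with the fewest counts, at 1.43, 1.03 and 1.26 CPM against 0.822, 0.314 and 0.420 CPM. It was lower by label without overlap (-1.22 ± 0.39, edgeR adjusted p = 0.0355). Its call was lost without Tfam f/f replicate 1 (adjusted p = 0.107), Tfam f/f replicate 3 (0.0577), KspCre Tfam f/f replicate 2 (0.119) and KspCre Tfam f/f replicate 3 (0.116). Slc25a35, Slc25a47 and Slc25a53 overlapped between the labels, with log2 fold changes of 0.14, -0.23 and -0.38, and Slc25a35 shares 31.3% of its exon length with the opposite-strand gene Rangrf. Slc25a46, a family member of the outer membrane that takes part in mitochondrial shape, was not called (0.33, 95% interval 0.01 to 0.66, edgeR adjusted p = 0.0834), except after thinning (adjusted p = 0.0452) and without Tfam f/f replicate 2 (0.00392).

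Genes that work beside the carriers were read from lists chosen by function. Of 15 tested genes of the import machinery that inserts carriers, 5 were called higher and 2 lower, and the median log2 fold change was 0.19, beside -0.03 over all tested genes. Timm9, a small chaperone of the intermembrane space, was higher by 0.65 on the log2 scale (edgeR adjusted p = 0.00263), and Tomm70a, the receptor that recognises carriers at the outer membrane, by 0.55 (adjusted p = 0.00684). Tomm40, the pore of the outer membrane, was lower by label (-0.56, adjusted p = 0.00917). Timm10, the other import gene called lower, is named to complete that count (-0.49, edgeR adjusted p = 0.0445). Of 13 other transporters of the inner membrane, 9 were called higher and 2 lower, with a median of 0.70. Sfxn1, a serine transporter, was higher by 1.06 (edgeR adjusted p = 0.00540), as was Mpc1, a subunit of the pyruvate carrier, by 0.98 (adjusted p = 0.00725). Sfxn3 was lower by label (-1.11, adjusted p = 0.00105).

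Enzymes that work with the carriers on either side of the membrane were divided, with 6 of 15 called higher, 4 lower and a median log2 fold change of 0.06. Arg2, the mitochondrial arginase that makes ornithine, had 39.1, 19.3 and 44.4 CPM under the label Tfam f/f and 5.19, 4.95 and 4.62 CPM under the label KspCre Tfam f/f. It was lower under the label KspCre Tfam f/f (-2.79 ± 0.30, edgeR adjusted p = 0.000696), while the ornithine carrier Slc25a15 was higher. Ckmt1, the mitochondrial creatine kinase, and Got1, the cytosolic aspartate aminotransferase of the malate-aspartate shuttle, were lower as well (-0.87 and -0.68, edgeR adjusted p = 0.00125 and 0.00344). Oat, the ornithine aminotransferase, was the other enzyme called lower (-0.38, edgeR adjusted p = 0.0229). Oat and the 6 called higher are named here to complete the counts after their values were seen. The 6 called higher included Mdh1, the cytosolic malate dehydrogenase of the malate-aspartate shuttle (0.91, adjusted p = 0.0273). The others were Cpt1a, Cpt2 and Crat, which make and break acylcarnitines (0.75, 0.76 and 0.65), Gpd2 of the glycerol phosphate shuttle (0.66) and Acly, which splits cytosolic citrate (0.47).

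Some cell type markers differed between the labels beside these results, and others did not. Of the 12 proximal tubule markers, 8 were called higher and 0 lower under the label KspCre Tfam f/f, and their summed CPM was 3.14 times as high in the mean. Markers of the thick ascending limb, another tubule segment rich in mitochondria, summed to 2783 to 4207 CPM under the label Tfam f/f and 9909 to 9987 CPM under the other, with 3 of 5 called higher. Those of the distal convoluted tubule, intercalated cells and podocytes were called higher in 3 of 4, 4 of 5 and 3 of 5. Of the intercalated cell markers, 1 was called lower. Of 5 principal cell markers, 0 were called higher and 2 lower. None of the 6 endothelial markers was called, and their sums overlapped, at 190 to 371 and 315 to 331 CPM. Markers of T and NK cells summed to 10.2 to 20.02 CPM under the label Tfam f/f and 4.96 to 5.97 CPM under the other. Those of B cells summed to 3.53 to 5.04 against 2.11 to 3.05 CPM, and those of neutrophils to 2.16 to 11.8 against 0.954 to 1.93 CPM. Of their tested markers, 1 of 6, 1 of 3 and 2 of 2 were called lower, and 0 higher. Markers of skeletal muscle and adrenal gland summed to at most 1.60 and 2.48 CPM in any library. The 7 adipocyte markers summed unevenly, to 5.62, 34.0 and 5.67 CPM under the label Tfam f/f and 1.60, 0.507 and 9.58 CPM under the other. Ucp1, which is among them, had 3.32 CPM in Tfam f/f replicate 2 and 2.75 CPM in KspCre Tfam f/f replicate 3. The part of these cell types in the members' differences was not tested.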

How the data were processed

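Messenger RNA of 6 whole-kidney libraries was sequenced after poly A selection and strand-marking with dUTP, per the labels' protocols. The submitters' processing notes name FastQC, Trim Galore, STAR 2.4.1d, HTSeq 0.11.0 and the build mm10; which annotation release and which strand option HTSeq used is not given in the sources used here. The deposited values are raw counts per gene, made by the authors with no normalization, for 54146 genes and 5 summary lines per library. The summary lines, 15.99% to 20.4% of all lines' counts, entered neither library sizes nor tests, and reads of several places were not counted.

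Members and gene lists were chosen with earlier results of these data known. Counts were fitted in edgeR 4.0.16 (R 4.3.3) with filterByExpr (minimum count 10), TMM factors, glmQLFit with robust estimation and glmQLFTest, with Benjamini-Hochberg adjustment over all 17308 genes and a threshold of 0.05. CPM used the same factors, and FPKM the joined exon lengths of GENCODE M21, where the 47 family identifiers had the same symbols. Named with full values were the textbook carriers of energy metabolism, up to 8 called members with the largest change in each direction and the called member with the smallest p in each role; the other members are given by fold or level. The values of 1 member are not reported here, though it was tested and counted with the rest. Alternatives were RLE, upper-quartile and no scaling factors, other filters, DESeq2 1.42.0, limma voom (limma 3.58.1), a minimum fold of 1.5, the replicate number as a block, thinning to the shallowest library, mitochondrial DNA genes left out and each library left out. Libraries under one label differed beyond sampling noise (chi-square per degree of freedom of 7.09 or more), so each was kept as a sample.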

Additional observations from a re-analysis of the deposited data

How the results depend on the processing

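Without scaling factors, which moved the median log2 fold change of all tested genes to -0.46, edgeR called 1680 genes higher and 8519 lower, and 6 members higher and 12 lower; Slc25a1, Slc25a37, Slc25a40 and Slc25a44 then reversed, at -0.35, -0.096, -0.032 and -0.083. Against a minimum fold of 1.5, 1116 genes were called higher and 1824 lower, and 3 members higher (Slc25a21, Slc25a42 and Slc25a48) and 2 lower (Slc25a24 and Slc25a27). With each library left out, genes called higher ranged from 2276 to 4652 and lower from 2822 to 4942, and members called higher from 7 to 20 and lower from 3 to 5; these fits have fewer libraries. The other scaling factors, filters and tools gave 12 to 17 members higher and 4 or 5 lower. With the replicate block, 14 members were called higher and 4 lower (Slc25a37, Slc25a40 and Slc25a44 not called at adjusted p = 0.0574, 0.105 and 0.0542, and Slc25a32 called at 0.0393), and same-numbered libraries did not deviate together (r of -0.174, -0.070 and -0.071, and no library correlated best with its own number), so the numbers were not taken as pairs. Of the called members, Slc25a15, Slc25a16, Slc25a21, Slc25a42, Slc25a48 and Slc25a51 (higher) and Slc25a24, Slc25a27 and Slc25a33 (lower) kept the call under the 16 alternatives other than the minimum fold, and no called member's fold moved by over 1.5 times. Depth limits Slc25a43 most, with 167 counts over 6 libraries. The 2 labels differ in depth, in the spread between libraries and in cell type markers, and these cannot be told apart from the label.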
